A study of Mus musculus with 8 samples.

Results

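The Ifi200 genes Ifi203, Ifi205, Ifi206, Ifi207, Ifi209 and Ifi213 were examined in bone marrow progenitors of mouse dendritic cells, split by a green reporter of the gene Id2. The 6 genes, of 19938 measured, were chosen by their measured difference between Id2-GFP+ and Id2-GFP- cells, which ran up for some and down for others. Those differences therefore describe how the genes were chosen and carry no test for them. Each gene was read by 1 probe set whose annotation names that gene alone. Values are log2 of the deposited intensity, and 1 unit of log2 is a doubling.

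The Ifi200 genes, also called the PYHIN genes, lie side by side on mouse chromosome 1 and encode related proteins that many cells make in response to interferon. Most pair a pyrin domain, which binds other proteins, with one or more HIN domains, which can bind DNA. Aim2 is the best known: it senses DNA in the cytosol and assembles an inflammasome. The family has expanded differently between mammals, and several mouse members have no direct human counterpart. Id2 is an inhibitor of E proteins, a class of transcription factors, and is needed for the type 1 conventional dendritic cell (cDC1).

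Total RNA of 4 populations was hybridised, with 2 arrays each: Id2-GFP+ pre-CD8, Id2-GFP- pre-CD8, Id2-GFP+ CDP and Id2-GFP- CDP. CDP is the common dendritic progenitor, and pre-CD8 is named by the labels without a definition. Sources name an Id2-IRES-GFP reporter mouse for every sample, whereas the genotype field gives heterozygous Id2-IRES-GFP for the 2 Id2-GFP- CDP samples and heterozygous Zbtb46-GFP for the other 6. A comparison with Id2-GFP- CDP therefore also differs in that field, and the genotype field and the groups cannot be told apart. Cells came from bone marrow, the labels name no treatment, and ages, sort gates and whether replicates came from separate animals are not given. P-values thus rest only on how far the arrays of a group differ, and that spread may be technical.

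Replicate arrays correlated at r of 0.984 to 0.989 over the 19938 genes. The arrays fell into a brighter set, with mean intensity of 460.7 to 477.9, and a dimmer set, with 401.6 to 413.8. Each set held 1 array of every group, so differences are also given within each set. Id2 itself lay between 9.26 and 10.99 on the 4 Id2-GFP+ arrays and between 5.14 and 7.18 on the 4 Id2-GFP- arrays, with no overlap. The progenitor markers Flt3, Kit, Csf1r, Irf8, Spi1 and Cx3cr1 lay above the array median on all 8 arrays. The cDC1 markers were mixed: Batf3 lay above it on 8 arrays, Clec9a on 7, Id2 on 6 and Zbtb46 on 5. Cd226, Tlr3 and Cadm1 lay above it on 4 arrays each, and Xcr1 on 0. In bulk samples, fewer cells of a type and less RNA per cell cannot be told apart.

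The family's promoters share a short element. The RefSeq promoter table (GRCm38.p6) holds 300 bases per window, 250 before and 50 after a gene's start, and has a window for all 6 genes. The core of the interferon response element was searched on both strands as GAAA and GAAA with any 2 bases between them. It was present without mismatch in 5 of the 6 genes and in 4 of the 6 other family genes with a window, against 3.44% of 32851 promoter windows. A family gene counted if any of its windows matched, whereas the percentage is a share of windows, so the units are not alike. The stretches around it are shown for the genes that were high and those that were low in Id2-GFP+ pre-CD8 cells. The fixed letters of the core were searched for, so their likeness follows from the search. After the core, Ifi205, Ifi203, Ifi206 and Ifi213 carry the same letters, and Ifi207 and Ifi209 differ. Before it, Ifi206, Ifi213 and Ifi209 carry the same letters, which differ from those of Ifi205, Ifi203 and Ifi207. Capitals mark the core, and in Ifi209, which had no exact match, the one of its 4 matches with 1 mismatch whose flanks look most like the others.
Ifi205: ggccaggGAAATTGAAAgctatga
Ifi203: agctgggGAAATCGAAAgctatga
Ifi207: agccaggGAAATCGAAAattaaga
Ifi209: ctctgagTAAATCGAAAgagatgc
Ifi206: ctctgagGAAATCGAAAgctatga
Ifi213: ctctgagGAAATCGAAAgctatga

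The core began 134 bases before the start of Ifi205, 35 before that of Ifi203 (in the second of its 2 windows), 41 before that of Ifi207, 40 before that of Ifi206 and 73 before that of Ifi213. Ifi205 had a second match on the opposite strand 23 bases after its start. With 1 mismatch allowed, 35.4% of all windows hold the element, so a match such as that of Ifi209, 79 bases before its start, is common. The E box CAGCTG, a sequence of the kind that E proteins bind, occurred in Ifi206, Ifi213 and Ifi209. It also occurred in 2 of the 6 other family genes with a window, against 16.3% of all windows, again by gene against by window. A match describes letters only, and no binding was measured.

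Whole windows are printed for the genes furthest apart in their values, Ifi205 and Ifi207 on one side and Ifi206 and Ifi213 on the other, with exact matches to both motifs in capitals. The Ifi205 window is chr1:174031706-174032005, that of Ifi207 chr1:173741760-173742059, that of Ifi206 chr1:173491269-173491568 and that of Ifi213 chr1:173599223-173599522. All 4 are on the minus strand and are written in the direction of transcription.
Ifi205: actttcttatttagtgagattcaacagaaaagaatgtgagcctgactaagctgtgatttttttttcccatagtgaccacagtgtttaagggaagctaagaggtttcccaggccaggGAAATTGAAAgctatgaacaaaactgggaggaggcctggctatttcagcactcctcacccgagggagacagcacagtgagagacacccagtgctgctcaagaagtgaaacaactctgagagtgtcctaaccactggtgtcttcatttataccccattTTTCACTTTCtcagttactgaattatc
Ifi207: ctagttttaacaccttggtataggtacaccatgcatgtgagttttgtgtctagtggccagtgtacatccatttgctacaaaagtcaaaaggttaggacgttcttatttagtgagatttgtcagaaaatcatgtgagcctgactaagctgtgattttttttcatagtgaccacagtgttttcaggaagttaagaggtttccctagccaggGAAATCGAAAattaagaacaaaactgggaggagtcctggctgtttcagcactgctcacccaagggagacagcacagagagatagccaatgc
Ifi206: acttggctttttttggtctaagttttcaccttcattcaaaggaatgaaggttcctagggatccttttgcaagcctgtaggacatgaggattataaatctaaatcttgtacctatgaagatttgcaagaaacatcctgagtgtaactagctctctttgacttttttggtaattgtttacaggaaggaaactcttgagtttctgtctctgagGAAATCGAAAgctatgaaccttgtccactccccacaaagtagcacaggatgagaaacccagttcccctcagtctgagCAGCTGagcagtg
Ifi213: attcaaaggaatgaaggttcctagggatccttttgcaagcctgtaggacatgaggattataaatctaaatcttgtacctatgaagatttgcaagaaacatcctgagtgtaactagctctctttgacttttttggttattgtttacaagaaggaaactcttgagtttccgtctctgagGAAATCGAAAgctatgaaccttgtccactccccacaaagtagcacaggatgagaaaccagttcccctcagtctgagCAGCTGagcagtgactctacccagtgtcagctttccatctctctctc

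Identity was taken between the first window of each gene, so the second window of Ifi203, which holds its core, was not compared. The windows of Ifi206 and Ifi213 were 78.7% identical. The other pairs over 70% in the family were Ifi209 with Ifi214 at 95.3%, Ifi213 with Ifi208 at 89.5%, Ifi206 with Ifi208 at 87.5% and Ifi207 with Ifi211 at 85.9%. The remaining 61 of 66 family pairs lay between 46.0% and 58.1%, and family genes with neighbouring genes between 42.3% and 54.0%. Windows were aligned end to end, with gaps at the ends counted as differences. A stretch shared at unlike distances from the start therefore lowers the value. Ifi205 with Ifi207 gave 46.0%, with cores 134 and 41 bases before the start, although their printed windows share long stretches. A low value thus does not show that promoters are unalike. Similar transcripts can also share array probes, and the response of each probe set to its paralogs was not tested.

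Ifi205 and Ifi203 were higher in Id2-GFP+ cells at both stages. Ifi205 is a mouse PYHIN protein of the myeloid lineage. It had 11.73 and 11.83 in Id2-GFP+ pre-CD8 cells, against 6.30 and 6.39 in Id2-GFP- pre-CD8 cells, and 10.94 and 10.90 in Id2-GFP+ CDP, against 5.89 and 7.22 in Id2-GFP- CDP. All 4 Id2-GFP+ arrays were well above all 4 Id2-GFP- arrays, and the 2 Id2-GFP- CDP arrays stood apart from each other. The difference in pre-CD8 was 5.53 within the brighter arrays and 5.34 within the dimmer ones, and in CDP 5.01 and 3.72. The levels of the 2 Id2-GFP- groups overlapped, while the 2 Id2-GFP+ groups were apart by 0.80 at their nearest arrays.

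Ifi203, a nuclear member of the family, gave 11.53 and 11.74 in Id2-GFP+ pre-CD8 cells, against 11.04 and 10.62 in Id2-GFP- pre-CD8 cells, and 11.45 and 11.30 in Id2-GFP+ CDP, against 10.58 and 10.48 in Id2-GFP- CDP. It was bright on every array, and its 4 Id2-GFP+ arrays were also above its 4 Id2-GFP- arrays. The steps were small and alike at both stages: 0.81 ± 0.19 in pre-CD8 and 0.85 ± 0.19 in CDP (difference ± SE, n = 2 each), or 1.75-fold and 1.80-fold. Ifi203 is the member whose 4 group means spanned the narrowest range, 1.11, against 5.44 for Ifi205.

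**Figure D1:**
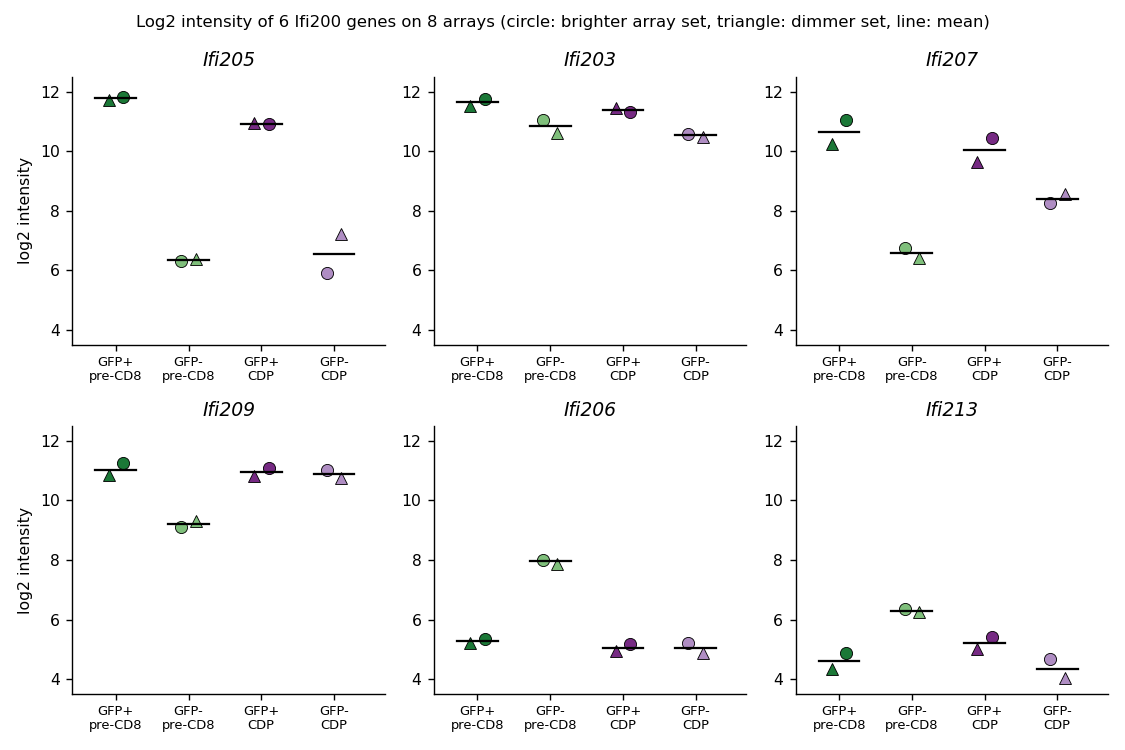
Log2 intensity of the 6 Ifi200 genes on each of the 8 arrays, 1 panel per gene on a common scale; colours mark the 4 groups, circles the brighter and triangles the dimmer arrays, and lines the means of 2. Ifi205 separates all Id2-GFP+ from all Id2-GFP- arrays, while Ifi206 and Ifi213 stand highest, and Ifi209 lowest, on the 2 Id2-GFP- pre-CD8 arrays.

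Ifi207 and Ifi209 were lowest in Id2-GFP- pre-CD8 cells. Ifi207 had 10.25 and 11.05 in Id2-GFP+ pre-CD8 cells, against 6.75 and 6.41 in Id2-GFP- pre-CD8 cells, and 9.64 and 10.44 in Id2-GFP+ CDP, against 8.24 and 8.55 in Id2-GFP- CDP. Its levels formed 3 steps: both Id2-GFP+ groups overlapped at the top, Id2-GFP- CDP came next and Id2-GFP- pre-CD8 cells lay below. The difference was 4.07 ± 0.35 in pre-CD8, or 16.8-fold, and 1.64 ± 0.35 in CDP, or 3.12-fold.

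Ifi209, which has a pyrin and a HIN domain, had 10.84 and 11.25 in Id2-GFP+ pre-CD8 cells, against 9.10 and 9.32 in Id2-GFP- pre-CD8 cells, and 10.82 and 11.10 in Id2-GFP+ CDP, against 11.03 and 10.77 in Id2-GFP- CDP. Only the Id2-GFP- pre-CD8 arrays stood apart, and the other 3 groups overlapped. The difference was 1.83 ± 0.22 in pre-CD8, or 3.57-fold, and 0.06 ± 0.22 in CDP.

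Ifi206 and Ifi213 ran the other way in pre-CD8 cells. Ifi206 had 5.21 and 5.35 in Id2-GFP+ pre-CD8 cells, against 8.01 and 7.88 in Id2-GFP- pre-CD8 cells, and 4.95 and 5.18 in Id2-GFP+ CDP, against 5.22 and 4.87 in Id2-GFP- CDP. Both Id2-GFP- pre-CD8 arrays were far above the other 6, which lay between 4.87 and 5.35. The difference was -2.67 ± 0.18 in pre-CD8, or 6.35-fold lower in Id2-GFP+ cells, and 0.02 ± 0.18 in CDP.

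Ifi213 had 4.34 and 4.88 in Id2-GFP+ pre-CD8 cells, against 6.35 and 6.25 in Id2-GFP- pre-CD8 cells, and 5.01 and 5.42 in Id2-GFP+ CDP, against 4.67 and 4.03 in Id2-GFP- CDP. Again the Id2-GFP- pre-CD8 arrays were the 2 highest, but at the CDP stage the Id2-GFP+ arrays were the higher ones. The difference was -1.69 ± 0.27 in pre-CD8, or 3.22-fold lower in Id2-GFP+ cells, and 0.86 ± 0.27 in CDP, or 1.82-fold higher. Outside Id2-GFP- pre-CD8 cells, Ifi206 and Ifi213 lay below the array medians of 6.12 to 6.27, a range in which RMA can compress differences, and how far it did so here was not measured. Even in Id2-GFP- pre-CD8 cells, Ifi213 at 6.35 and 6.25 was barely above the medians of those arrays, 6.269 and 6.226.

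**Figure D2:**
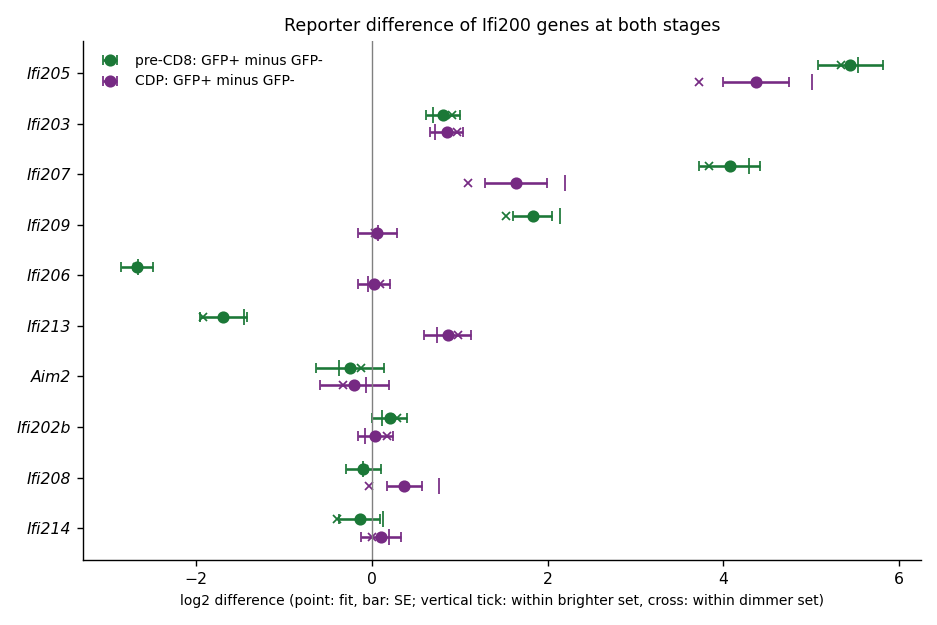
Id2-GFP+ minus Id2-GFP- difference in log2, in pre-CD8 and in CDP, of the 6 genes and of Aim2, Ifi202b, Ifi208 and Ifi214; points are fitted differences, bars the limma standard error, ticks the difference within the brighter and crosses that within the dimmer arrays. In pre-CD8 the 6 genes run from 5.44 for Ifi205 to -2.67 for Ifi206, and in CDP from 4.37 for Ifi205 to 0.02 for Ifi206.

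In pre-CD8, the Id2-GFP+ and the Id2-GFP- arrays did not overlap for any of the 6 genes, Id2-GFP+ being above for 4 and below for 2, where 40.5% of all genes did not overlap. In CDP, they did not overlap for 4 of the 6, with Id2-GFP+ above in each, where 25.0% of all genes did not overlap. Ifi206 and Ifi209 overlapped there. Since the genes were picked for these directions, nothing is read from the counts.

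The stage of the cells, pre-CD8 against CDP within one reporter class, did not choose the genes. It uses the same arrays, though, and the Id2-GFP- pre-CD8 arrays enter both this comparison and the one behind the choice. Its p-values for the members are therefore not independent of that choice, and nothing is read from the number of members that passed. In Id2-GFP- cells, Ifi206 and Ifi213 rose and Ifi207 and Ifi209 fell, whereas Ifi203 and Ifi205 did not pass. That is 4 of 6 genes, 2 in each direction, where 1.63% of all 19938 genes passed, 1.03% upward and 0.592% downward (limma, adjusted p under 0.05). Both Id2-GFP- pre-CD8 arrays were above both Id2-GFP- CDP arrays for 3 of the genes and below them for 2, where 15.5% of all genes were above and 16.1% below. The median difference of the 6 was 0.04, beside 0.00 over all genes.

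Ifi206 rose by 2.90 ± 0.18, 7.48-fold, in Id2-GFP- pre-CD8 cells relative to Id2-GFP- CDP (limma, adjusted p = 0.00074). This was the firmest of the calls, with 2.79 within the brighter and 3.02 within the dimmer arrays, and it passed in all 15 alternative settings. Ifi213 rose by 1.95 ± 0.27, 3.87-fold (limma, adjusted p = 0.0123), with 1.68 and 2.23 within the sets. It missed the threshold when replicate 2 of Id2-GFP- CDP was omitted (0.0941), and likewise replicate 1 (0.0627) or 2 (0.0543) of Id2-GFP- pre-CD8.

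Ifi209 fell by 1.69 ± 0.22, 3.23-fold, in Id2-GFP- pre-CD8 cells relative to Id2-GFP- CDP (limma, adjusted p = 0.0093), with -1.92 within the brighter and -1.46 within the dimmer arrays. It missed the threshold when replicate 1 (0.0819) or 2 (0.0615) of Id2-GFP- CDP or replicate 1 of Id2-GFP- pre-CD8 (0.058) was omitted. Ifi207 fell by 1.82 ± 0.35, 3.52-fold, just inside the threshold (limma, adjusted p = 0.0484), with -1.49 and -2.14 within the sets. Its call was lost in 6 of 15 alternatives: the replicate block (0.0769), a robust prior (0.0531) and the omission of any one of the 4 Id2-GFP- arrays (0.12 to 0.315).

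Ifi203 differed by 0.30 ± 0.19 between Id2-GFP- pre-CD8 cells and Id2-GFP- CDP, with a 95% interval of -0.14 to 0.74. Ifi205 differed by -0.21 ± 0.37, with an interval of -1.07 to 0.65 and opposite signs within the sets, 0.41 in the brighter and -0.83 in the dimmer arrays. Neither passed (limma, adjusted p = 0.936 and 1).

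In Id2-GFP+ cells, 0 of the 6 genes passed, and so did 0% of all genes by limma (643 genes had an unadjusted p under 0.05). The arrays stood apart upward for 3 of the 6 genes and downward for 1, where 8.94% and 10.3% of all genes did. The stage difference of Ifi205 was 0.86 ± 0.37, with a 95% interval of 0.00 to 1.72 and an unadjusted p of 0.0499, the one member with an unadjusted p under 0.05 (limma, adjusted p = 1). For Ifi213 it was -0.60 ± 0.27 with an interval of -1.21 to 0.02, and for Ifi207 0.61 ± 0.35 with an interval of -0.19 to 1.41. Ifi203, Ifi206 and Ifi209 gave 0.26, 0.21 and 0.08, with intervals of -0.18 to 0.70, -0.20 to 0.63 and -0.41 to 0.58.

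**Figure D3:**
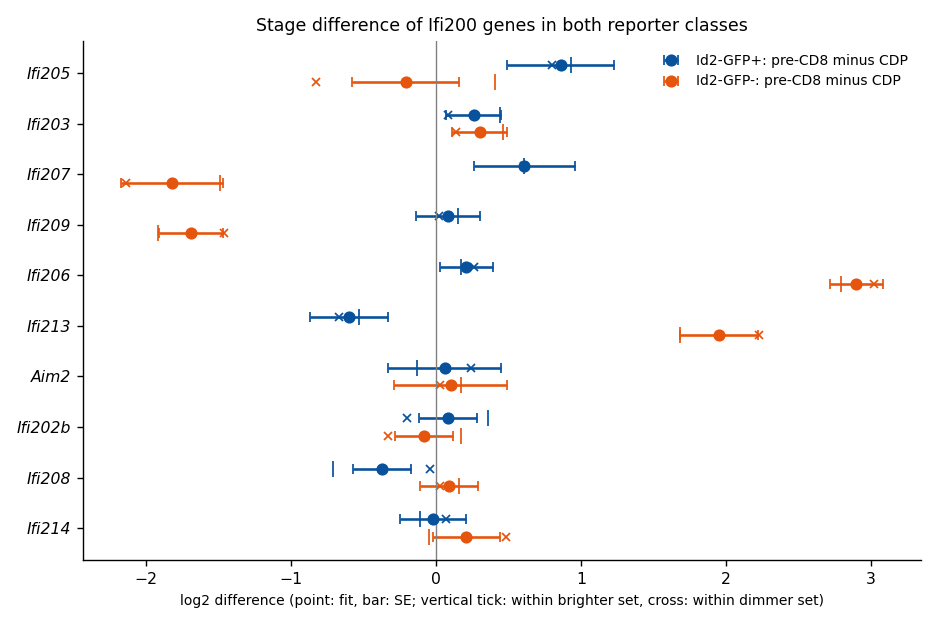
Pre-CD8 minus CDP difference in log2, in Id2-GFP+ and in Id2-GFP- cells, of the 6 genes and of Aim2, Ifi202b, Ifi208 and Ifi214; points are fitted differences, bars the limma standard error, ticks the difference within the brighter and crosses that within the dimmer arrays. In Id2-GFP- cells Ifi206, Ifi213, Ifi207 and Ifi209 lie at 2.90, 1.95, -1.82 and -1.69, and in Id2-GFP+ cells the 6 genes lie between -0.60 and 0.86.

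The reporter difference in pre-CD8 minus that in CDP is an interaction of reporter and stage. It is built from the differences that chose the 6 genes, so for them it is a description with no test, and over all genes 0.145% passed by limma, 0.0351% upward and 0.110% downward. Ifi206 had -2.69 ± 0.26 (± SE), with -2.62 within the brighter and -2.76 within the dimmer arrays, and Ifi213 had -2.55 ± 0.38. Both were lower with the reporter in pre-CD8 and not in CDP. Ifi207 had 2.42 ± 0.49, Ifi209 1.78 ± 0.31 and Ifi205 1.07 ± 0.53, while Ifi203 gave -0.04 ± 0.27.

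For the rest of the cluster no change passed the test. The reference table places 14 family genes in a row: Aim2, Ifi206, Ifi214, Ifi213, Ifi209, Ifi208, Ifi207, Ifi204, Ifi203-ps, Mndal, Ifi211, Ifi203, Ifi202b and Ifi205. Of these, 10 had a probe set of their own, the 6 above and 4 more, while Ifi204 and Ifi211 share a probe set with several symbols and were left out, and Mndal and Ifi203-ps were not analysed here. Aim2, the inflammasome sensor, was bright, at 10.35 to 10.73 on the brighter arrays and 9.60 to 9.97 on the dimmer ones. Its reporter difference in pre-CD8 was -0.25 ± 0.39 (limma, adjusted p = 0.962), with -0.37 within the brighter and -0.12 within the dimmer arrays. Ifi202b, an inhibitor of Aim2 in mice that has no pyrin domain, lay at 3.60 to 4.14, Ifi208 at 4.27 to 5.04 and Ifi214 at 3.75 to 4.31, all near the low end of the arrays. None of these 4 passed in any of the 5 comparisons by limma.

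Along the chromosome, Ifi206 and Ifi213, lower with the reporter in pre-CD8, came first among the 6 genes, and the 4 that were higher, Ifi209, Ifi207, Ifi203 and Ifi205, came after them. Dim genes lay between them: Ifi214, with a promoter window 95.3% identical to that of Ifi209, was dim on every array, as was Ifi208. Outside the family, 4 measured genes before the cluster (Cadm3, Ackr1, Fcer1a and Apcs) and 4 after it (Mptx1, Fmn2, Rgs7 and Fh1) did not pass in any of the 5 comparisons by limma. Predicted genes and olfactory receptors were passed over in this choice, so these need not be the nearest measured genes. With the array set as a block, the stage difference of Fh1 in Id2-GFP- cells, -0.56 ± 0.18, did pass (adjusted p = 0.00239, against 0.257 without the block).

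**Figure D4:**
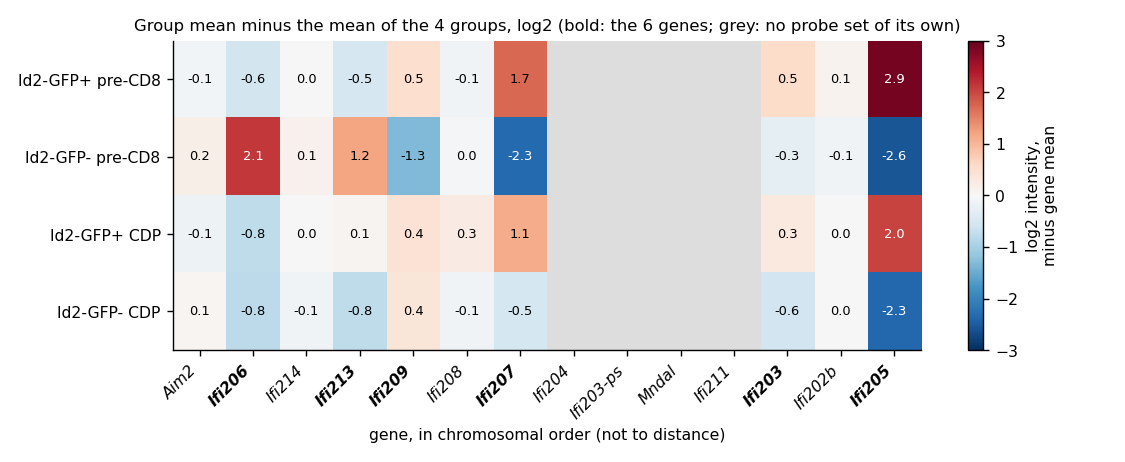
Group means of the 14 genes of the Ifi200 cluster in chromosomal order (columns, not to distance) in the 4 groups (rows), in log2 after subtraction of each gene's mean over the groups; red is above and blue below that mean, and grey columns had no probe set of their own. Ifi206 and Ifi213 are red in the Id2-GFP- pre-CD8 row, where Ifi205, Ifi207 and Ifi209 are blue, and Aim2, Ifi202b, Ifi208 and Ifi214 are pale.

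Across the 8 arrays the genes paired off, as a description only since all share the same arrays and 4 group means dominate. Ifi206 ran with Ifi213 (r = 0.88) and against Ifi209 (r = -0.96) and Ifi207 (r = -0.80). Ifi205 ran with Ifi207 (r = 0.91) and Ifi203 (r = 0.90), and Ifi209 ran with Ifi207 (r = 0.87) and against Ifi213 (r = -0.80). Ifi205 and Ifi206, which had the largest differences in opposite directions, were related more loosely (r = -0.56).

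Among 1879 other genes with an SD of at least 0.5 over the 8 arrays, the 3 most like each member by Pearson's r were taken. Predicted genes, olfactory and vomeronasal receptors, small RNAs and antigen receptor segments had been left out of these. Ifi205 was closest to St3gal5, a sialyltransferase of ganglioside synthesis (r = 0.995), Serpinb10 (0.994) and Pik3r5, a regulatory subunit of a phosphoinositide kinase (0.993). Ifi207 was closest to Tmem50b (0.996), Rtn4rl1 (0.993) and Anxa2 (0.992), Ifi203 to Apobr (0.975), Ubash3b (0.965) and Gstp3 (0.953), and Ifi209 to Depdc7 (0.989), Oip5 (0.987) and the cytokinesis gene Prc1 (0.986). Ifi206 was closest to the transcription factor Etv1 (0.994), Carns1 (0.992) and Gpr171 (0.992). Ifi213 was closest to Cd84 (0.979) and to a pair of interferon-induced genes, the RNA sensor Ddx58 (0.968) and Rtp4 (0.961).

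A list of 30 interferon-induced genes, without the Ifi200 family, was set beside the members. In Id2-GFP- pre-CD8 cells relative to Id2-GFP- CDP, 7 of the 28 measured rose and 0 fell, with a list median of 0.75 against 0.00 over all genes, of which 1.63% passed, 1.03% upward. When array set was a block, 18 of the 28 rose and 2 fell. Ddx58 rose by 3.45 ± 0.40 (limma, adjusted p = 0.0062), Rtp4 by 3.55 ± 0.42 (0.00694), the helicase Ddx60 by 1.83 ± 0.25 (0.0116) and the exonuclease Isg20 by 1.64 ± 0.23 (0.0143). The count ran between 0 and 8 on leaving out 1 array: it was 0 when replicate 2 of Id2-GFP- CDP was omitted, and 2 when replicate 1 of Id2-GFP- CDP or replicate 1 of Id2-GFP- pre-CD8 was. Ifi206 and Ifi213 moved in the same direction, and Ifi207 and Ifi209 in the opposite one.

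In Id2-GFP+ pre-CD8 cells relative to Id2-GFP- pre-CD8 cells, 9 of the 28 interferon-induced genes fell and 1 rose, with a median of -0.81 against -0.01 over all genes (6.26% of all genes passed, 3.57% upward and 2.70% downward). When array set was a block, 5 rose and 20 fell. Rtp4 fell by 3.08 ± 0.42 (limma, adjusted p = 0.00452), Oasl2 fell by 2.54 ± 0.34 (0.00412), Ddx58 fell by 2.47 ± 0.40 (0.00883) and Ddx60 fell by 1.75 ± 0.25 (0.00494). Ddx58 missed the threshold when replicate 1 of Id2-GFP- pre-CD8 was omitted (0.0513), and the number that fell ran between 3 and 11 on leaving out 1 array. It was 3 when that same array was omitted, and 4 and 5 when replicate 1 and replicate 2 of Id2-GFP+ pre-CD8 were. In CDP, 0 of 28 passed by limma, with 3 at an unadjusted p under 0.05, a median of 0.17 and 0.597% of all genes passing; 6 rose and 2 fell when array set was a block. In Id2-GFP+ cells 0 of 28 passed between stages, with 0 at an unadjusted p under 0.05. These counts and those of the members share the same arrays.

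**Figure D5:**
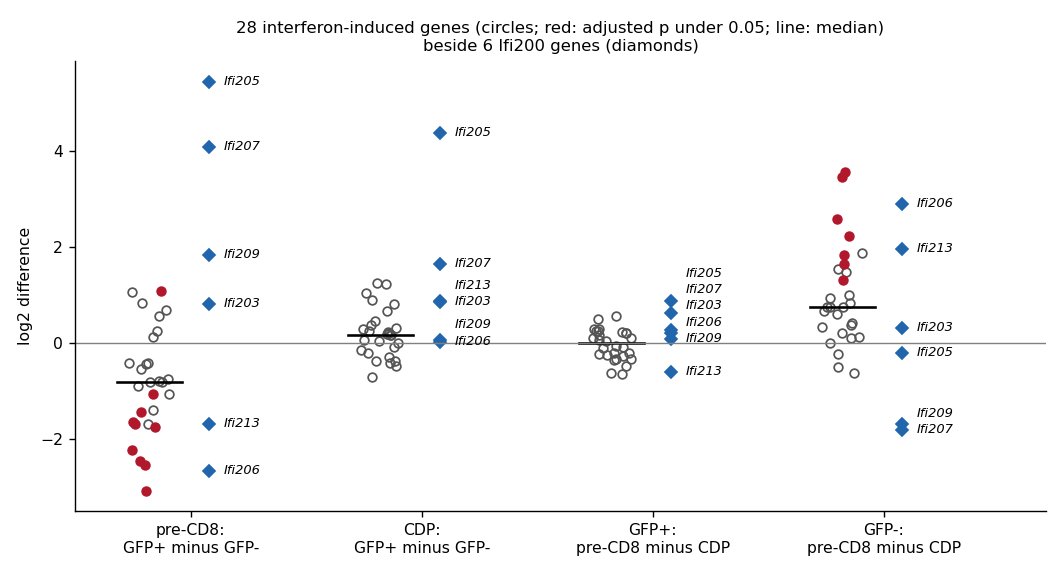
Differences in log2 of the 28 measured interferon-induced genes (circles, red where the adjusted p was under 0.05, line at the median) and the 6 Ifi200 genes (labelled diamonds) in the 2 reporter and the 2 stage comparisons. In the reporter comparison of pre-CD8 the list has a median of -0.81, with Ifi206 and Ifi213 below 0 and Ifi203, Ifi205, Ifi207 and Ifi209 above it.

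Genes of interferon signalling and of DNA sensing were counted in the same way. Of 17 measured genes for interferon receptors and signalling, 4 rose in Id2-GFP+ relative to Id2-GFP- pre-CD8 cells and 0 fell, and 7 rose and 4 fell when array set was a block, where 6.26% of all genes passed without it: the transcription factors Irf5, by 2.06 ± 0.23 (limma, adjusted p = 0.00208), and Irf8, by 1.14 ± 0.22 (0.0205), and the kinases Jak2, by 1.92 ± 0.31 (0.00892), and Tyk2, by 1.11 ± 0.24 (0.032). Irf5 passed whichever array was left out, and Jak2, Irf8 and Tyk2 missed the threshold in 2, 3 and 5 of the 8 omissions, most often of pre-CD8 arrays. Of 16 genes of cytosolic DNA sensing and the inflammasome, 3 rose and 0 fell, and 6 rose and 3 fell with that block: the endosomal DNA receptor Tlr9, by 2.15 ± 0.27 (0.00339), the nucleotide hydrolase Samhd1, by 1.28 ± 0.20 (0.00838), and the inflammasome adaptor Pycard, by 1.00 ± 0.17 (0.0104). Tlr9 passed in all 8 omissions, and Samhd1 and Pycard missed the threshold in 3 and 2, all of pre-CD8 arrays. In the other 4 comparisons 0 genes of either list passed by limma, with 3 to 5 of the first and 1 to 5 of the second at an unadjusted p under 0.05. With the block, up to 4 of the first rose and up to 2 fell in a comparison, and up to 2 of the second rose and up to 4 fell. Leaving out 1 array let at most 1 gene of the second pass.

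Markers of other cell types moved with the groups as well, and their part in the values of the Ifi200 genes was not tested. In CDP, 7 of 9 genes of neutrophils and granules rose with the reporter, and in pre-CD8 7 rose and 1 fell. Of all genes, 0.597% passed by limma in the first comparison and 6.26% in the second. The summed intensity of the list was 53045 to 76496 in Id2-GFP+ CDP and 10367 to 17909 in Id2-GFP- CDP. It was 38412 to 44015 in Id2-GFP+ pre-CD8 and 11730 to 13715 in Id2-GFP- pre-CD8 cells. Ifi203, Ifi205, Ifi207 and Ifi213 were higher in Id2-GFP+ CDP, and Ifi203, Ifi205, Ifi207 and Ifi209 in Id2-GFP+ pre-CD8 cells.

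Id2-GFP- pre-CD8 cells, where Ifi206 and Ifi213 were highest and Ifi207 and Ifi209 lowest, also differed from Id2-GFP- CDP in lineage markers. In that comparison 1.63% of all genes passed by limma. Of 5 measured B lineage genes, 2 rose relative to Id2-GFP- CDP, Rag1 and Ebf1, and the summed intensity of the list was 883 to 1418 there, against 303 to 312 in Id2-GFP- CDP. Of 6 T, NK and ILC genes 1 rose, the receptor Il7r, 12.4-fold, and the sums of the list were 2044 to 2586 in Id2-GFP- pre-CD8 cells and 520 to 567 in Id2-GFP- CDP. Of 6 pDC genes 1 rose, the chemokine receptor Ccr9, 11.4-fold, with sums of 5395 to 7104 in Id2-GFP- pre-CD8 cells and 5446 to 6225 in Id2-GFP- CDP. Of 6 measured monocyte and macrophage genes 5 fell, with sums of 1928 to 2034 in Id2-GFP- pre-CD8 cells and 8168 to 9481 in Id2-GFP- CDP. Of 6 dendritic cell progenitor genes 2 fell, Cx3cr1 and Csf1r, and of 8 cDC1 genes 1 fell, Clec9a, by 10.6-fold. When array set was a block, 2 progenitor genes rose and 4 fell, and 0 cDC1 genes rose and 1 fell. On leaving out 1 array, the calls of Csf1r and Clec9a were not always kept, while those of Rag1, Ebf1, Il7r, Ccr9 and Cx3cr1 were. The cDC1 genes summed to 5275 to 7532 in Id2-GFP+ pre-CD8 and 432 to 613 in Id2-GFP- pre-CD8 cells, a list that includes Id2.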

How the data were processed

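The authors deposited RMA intensity values on a linear scale for 28853 probe sets, made with Affymetrix Expression Console per the submitters' processing notes; versions are not given in the sources used here. RMA as usually run subtracts background and equalises the arrays, which can compress dim values. The deposited arrays were not equal, with mean intensity of 401.6 to 477.9 and an interquartile range of 3.15 to 3.73 in log2. The reason was not tested. The design had assumed log2 values, so log2 of the deposited intensity was taken first, with no further normalisation. Annotation gave 1 symbol to 21789 probe sets, several to 1621 and none to 5443; only the first were used, with the probe set of highest mean per gene, which left 19938 genes.

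Group means of all 8 arrays were fitted with limma 3.58.1 in R 4.3.3 (intensity-trended prior, 4 residual, 4.19 prior and 8.19 total degrees of freedom, two-sided, Benjamini-Hochberg over all genes, threshold 0.05). The number of arrays limits the precision. Alternatives were quantile normalisation, replicate number or array set as a block, a robust prior, an untrended prior, the mean over a gene's probe sets, dim genes left out and each array left out. The fit was tested on simulated data.

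The 6 genes and the gene lists were chosen with earlier results of these data known. Besides them, the text names Id2, the measured rest of the cluster, up to 4 measured neighbours on either side, up to 4 genes per list and comparison with the smallest p among those that passed, and the 3 genes most like each member. Same-numbered arrays deviated together within a reporter class (r of 0.69 and 0.71) and oppositely between classes (r of -0.69 to -0.63), and the labels do not say that a number marks a shared animal or day, so replicate numbers were not taken as pairs. Promoters came from RefSeq (GRCm38.p6).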

Additional observations from a re-analysis of the deposited data

Results flagged for a closer look

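For Ifi206, the Id2-GFP+ minus Id2-GFP- difference was -2.67 in pre-CD8 and 0.02 in CDP. The gap of -2.69 between the stages passed in the limma fit over all genes and missed the threshold in 8 of 15 alternatives. The gap is built from the differences that chose the gene, so it is given as a description and nothing is drawn from that call.

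For Ifi213 the arrays moved in opposite directions at the 2 stages, both Id2-GFP+ arrays being lower in pre-CD8, by 1.69, and higher in CDP. The gap between the stages was -2.55, did not pass in the same fit, and is a description for the same reason.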

How the results depend on the processing

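Group size (2 arrays) and paralogs that may share probes limit what these values show. So does low intensity, of Ifi206 outside 1 group and of Ifi213, near or below the array median, throughout. Same-numbered arrays deviated together within a reporter class and oppositely between classes, and the labels do not tie the numbers to animals or days, so no pairing was used in the tests reported. With a replicate block, 157 genes passed between stages in Id2-GFP- cells (324 without it), and 6 in the interaction (29 without it). Ifi207's stage difference of -1.82 (0.0769) then missed the threshold, the other 3 member calls between stages standing. With the array set as a block, which pairs same numbers within a class and crossed numbers between classes, 2486, 414, 1492, 1566 and 4822 genes passed in the stage comparisons of Id2-GFP- and Id2-GFP+ cells, the interaction and the reporter comparisons of CDP and pre-CD8, against 324, 0, 29, 119 and 1249. Quantile normalisation gave 836, 23, 158, 196 and 2475, and leaving out dim genes gave 8 in the stage comparison of Id2-GFP+ cells and 49 in the interaction. Leaving out 1 array gave 77 to 326, 0 to 1, 2 to 15, 35 to 126 and 466 to 1313. The cause of these shifts was not tested. Ifi206's stage call in Id2-GFP- cells passed in all 15 alternatives. Signs turned for values that never passed: Ifi205's stage difference in Id2-GFP- cells ran between -0.87 and 0.45 on leaving out 1 array, positive when replicate 2 of Id2-GFP- CDP was omitted. Ifi209's in Id2-GFP+ cells ran between -0.12 and 0.29, negative when replicate 1 of Id2-GFP+ CDP (-0.06) or replicate 2 of Id2-GFP+ pre-CD8 (-0.12) was omitted. Ifi203's interaction ran between -0.25 and 0.17, positive in 4 omissions: replicate 2 of Id2-GFP- CDP (0.01), replicate 1 of Id2-GFP+ CDP (0.03), of Id2-GFP- pre-CD8 (0.17) and of Id2-GFP+ pre-CD8 (0.07).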
